A study of Schizosaccharomyces pombe with 8 samples.

Results

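The combined difference described here sets Schizosaccharomyces pombe cells that carry a ∆wee1 label and were treated with H2O2 against untreated wild-type cells, so that 2 factors change at once. Its members are nuclear protein-coding genes, taken by the prefix of their systematic ID (SPAC, SPAP, SPBC, SPBP, SPCC or SPCP) and by a mean of at least 1 FPKM (fragments scaled by transcript length and library size) over the 4 groups. Of 7092 genes in the files, 5106 were nuclear and protein-coding by RefSeq, and 4949 of these reached that level. Another 35 genes with such a prefix reached it but were left out as pseudogenes or for want of a RefSeq entry. Each gene was described by which of the factors its transcript level followed: both in the same direction, both in opposite directions, H2O2 alone or the strain label alone.

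Poly(A)-selected RNA of 8 libraries had been sequenced, in 4 groups of 2 that the study's design text calls biological replicates. The baseline group was an untreated wild-type strain of genotype h- leu1-32 ura4-D18, grown to mid-log phase in YES, a rich yeast extract medium with supplements. The combined group was a strain labelled ∆wee1, with wee1::ura4+ beside ura4-D18, mating type h- and a leucine marker written leu-32, after 15 min in 20 mM H2O2. The other groups were the wild type after the same treatment and the untreated strain labelled ∆wee1, so the 4 groups share mating type h-, a leucine marker (written leu1-32 or leu-32) and the ura4-D18 allele. The labels do not say how many independent strains stand behind the ∆wee1 label. Each group's libraries are merged into a single FPKM value for each gene. Neither a spread between replicates nor an overlap between groups can therefore be judged, and sequencing depth is unknown. A transcript's share of the RNA pool cannot be told apart here from its amount per cell.

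Wee1 is a protein kinase that delays mitosis by adding an inhibitory phosphate to the kinase Cdc2, and the phosphatase Cdc25 removes that phosphate, so cells without Wee1 divide at a small size. Hydrogen peroxide activates the stress-activated kinase Sty1, whose transcription factor Atf1 drives a core set of stress genes. It also activates Pap1, an AP-1-like factor that drives antioxidant genes at lower peroxide levels than those needed for the full Sty1 response. Periodic transcription in the division cycle is run by MBF at the start of S phase and by forkhead factors, among others, in mitosis and cell separation.

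The wee1 transcript itself stood at 8.91, 8.17, 16.1 and 15.5 FPKM in the order untreated wild type, wild type after H2O2, untreated ∆wee1 label and ∆wee1 label after H2O2, and this order is kept for every set of 4 values below. It was higher under the deletion label, which goes against that label, and the groups are therefore named by their label throughout. The auxotrophic marker ura4, which replaces wee1 per the genotype, stood at 0.131, 0.0704, 185 and 235 FPKM and so followed the label. Among markers of mating type, the M-factor gene mfm2 stood at 267, 221, 91.7 and 78.96 FPKM, while the P-cell markers map2 and map3 lay between 2.13 and 3.93 FPKM. Of the other M markers, mam1, mam2, mfm1 and mfm3 lay between 1.37 and 15.8 FPKM, so the h- mating type rests on mfm2, which was lower under the label. Ribosomal RNA made up 3.13%, 22.2%, 10.9% and 3.19% of the summed FPKM of the 4 pools, and nuclear protein-coding genes 95.1%, 73.2%, 86.8% and 93.5%. The 2 pools of the combined difference thus had similar shares, whereas the single-factor pools, which enter the split into factors below, did not. The part of this in the results was not tested.

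The authors' deposited table called 893 of 4942 tested nuclear protein-coding genes in the combined difference at a q-value under 0.05, which is 18.1% of them. By direction, that table has 488 higher (9.87%) and 405 lower (8.2%) in H2O2-treated cells of the ∆wee1 label than in untreated wild type. Rose and fell are used below only of genes with such a call in the authors' deposited table. At least 2-fold on FPKM + 1 were 364 of 4949 genes (7.36%), 234 of them higher (4.73%) and 130 lower (2.63%). For comparison, calls in the authors' deposited table covered 15.6% of tested genes for H2O2 in wild type (6.45% higher and 9.15% lower) and 10.2% for H2O2 under the label (5.35% and 4.84%). They covered 9.46% for the label untreated (4.76% and 4.7%) and 14.6% for the label after H2O2 (7.49% and 7.06%).

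To split the combined difference, an H2O2 part was taken as the mean of the log2 ratios of H2O2 over untreated in both strains, and a label part as the mean of the log2 ratios of ∆wee1 label over wild type in both conditions. All ratios are of FPKM + 1, and the 2 parts sum to the combined log2 ratio exactly. Each ± is a standard error computed from the statistics of the authors' deposited table, and its median over the members was 0.28 for the combined ratio and 0.20 for either part. A part of at least 0.5 log2 units was taken as acting and a part under 0.25 as not acting. Both parts acted in the same direction in 107 genes, which add up, and in opposite directions in 101, which cancel. H2O2 acted alone in 386 genes, the label alone in 282, another 392 were mixed (1 acting part, the other between 0.25 and 0.5), and in 3681 neither part reached 0.5. The classes are cut from the same ratios as the calls, so the calls within a class are a description. Being cuts by size, they hold many genes without single-factor calls. All 4 single-factor comparisons were called in the direction of the parts in 35 of the 107 and 27 of the 101. H2O2 was called in both strains in 163 of the 386, and the label in both conditions in 134 of the 282. Over all 4949 members these counts were 69, 371 and 325.

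**Figure D1:**
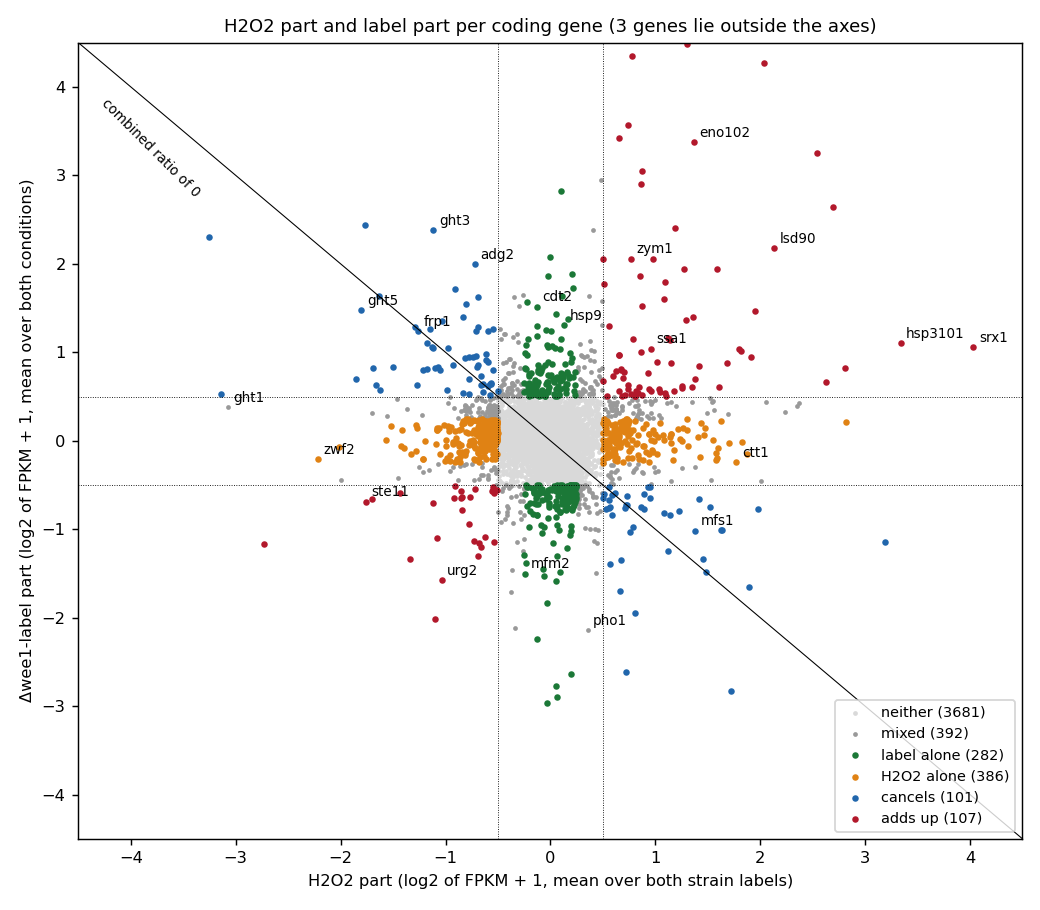
H2O2 part (x axis) against ∆wee1-label part (y axis) of 4949 nuclear protein-coding genes, both in log2 units of FPKM + 1, 1 point per gene and coloured by class, with 3 genes outside the axes. Dotted lines mark 0.5 log2 units, the diagonal marks a combined ratio of 0, and srx1 (H2O2 part 4.03, label part 1.06) and ght5 (-1.80 and 1.48) lie on opposite sides of the picture.

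Of the 78 genes that add up to a higher level, the authors' deposited table has 53 higher, and of the 29 that add up to a lower level it has 21 lower. Of the 101 genes in which the parts cancel, 70 (69.3%) had a combined ratio within 0.5 log2 units of 0, against 75.9% of all members. The authors' deposited table calls 17 of the 101 (16.8%), a share close to the 18.04% over all members, and by class it calls 3 of the 42 in which H2O2 acted upward and 14 of the 59 in which it acted downward. In the classes of 1 factor alone, these calls of the combined difference covered 96 of 151 genes with H2O2 acting upward and 105 of 235 with it acting downward. For the label acting upward and downward they covered 58 of 118 and 72 of 164. A further 308 calls fell on genes in which neither part reached 0.5, and in 296 of these both parts had the same sign. An example is atf1, the transcription factor downstream of Sty1, with parts of 0.38 and 0.48 and a combined ratio of 0.86 ± 0.21.

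**Figure D2:**
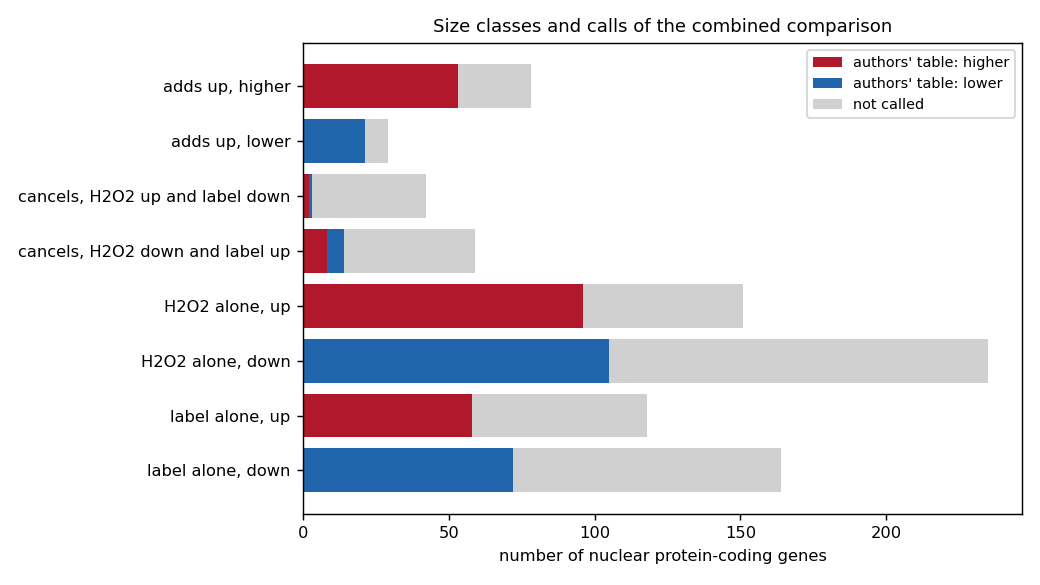
Number of nuclear protein-coding genes in 8 classes of joint effect (x axis), split by the call of the combined difference in the authors' deposited table. The classes that add up are small (78 and 29 genes) with most genes called, and in the classes that cancel (42 and 59) 3 and 14 genes are called.

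The largest called rises in H2O2-treated cells of the ∆wee1 label mostly had both parts acting upward or a large label part. They were ranked among genes with a symbol and at least 5 FPKM in the highest pool. The gene prl65 (SPAC19A8.16, chromosome I, 2472433 to 2473028 in RefSeq ASM294v3), which carries a symbol of the non-coding series but a coding entry in RefSeq, stood at 13.5, 69.9, 116 and 804 FPKM and rose by 5.80 ± 0.41. The sulfiredoxin gene srx1 (SPBC106.02c, chromosome II, 376253 to 377012), whose product repairs over-oxidised peroxiredoxin, stood at 20.6, 363, 45.3 and 736 FPKM and rose by 5.09 ± 0.70. H2O2 made up most of that ratio (4.03) and the label the rest (1.06), and adding the factors predicted 779 FPKM. The stress gene lsd90 stood at 18.5, 59.3, 60.95 and 386 FPKM, with nearly equal parts of 2.13 and 2.17, and its observed level lay above the 190.2 FPKM that addition predicts. The DJ-1 family gene hsp3101 stood at 12.6, 168, 34.9 and 294 FPKM, below the 446 FPKM of addition. The metallothionein gene zym1 stood at 87.6, 125, 306 and 628 FPKM, mostly through the label (2.06 against 0.77). The enolase gene eno102 (2.83, 6.97, 31.1 and 101 FPKM) and the alpha-galactosidase gene mel1 (0.312, 0.456, 4.98 and 16.9 FPKM) rose by 4.74 ± 0.47 and 3.77 ± 0.27, again mostly through the label. The haem uptake gene shu1 (0.545, 1.18, 11.03 and 15.5 FPKM), the protein repair methyltransferase gene pcm2 (1.36, 1.06, 12.6 and 16.9 FPKM) and the meiotic recombination gene mcp7 (2.04, 9.31, 4.93 and 16.97 FPKM) completed the 10 largest named rises. In pcm2 the label acted alone, in shu1 the H2O2 part was 0.48, and in mcp7 both parts acted (1.68 and 0.88).

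**Figure D3:**
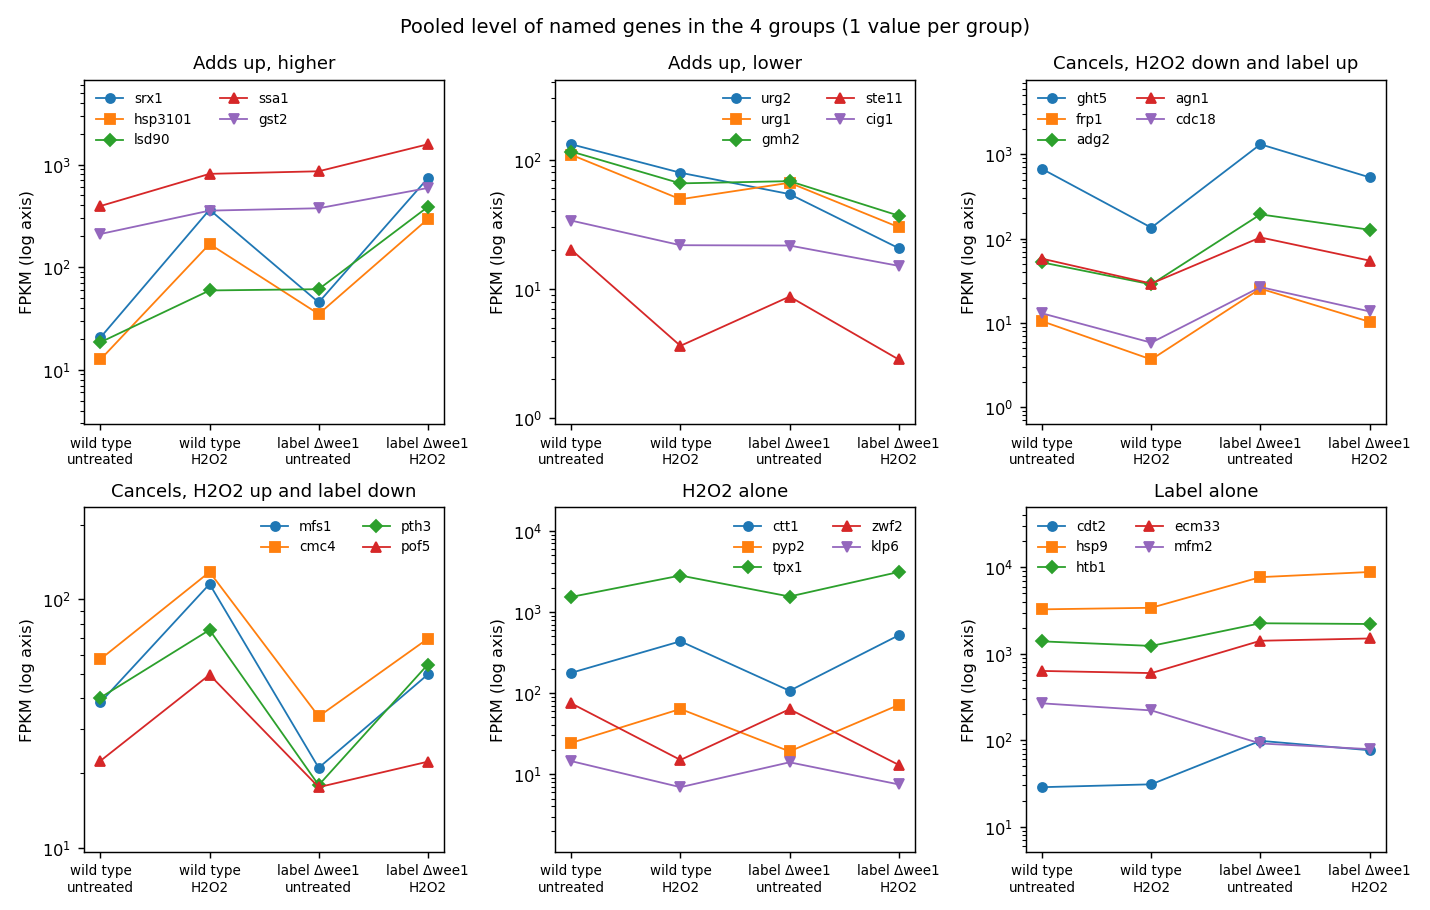
Pooled FPKM (log axis) of named genes in the 4 groups, 1 panel for each class of joint effect and 1 value per group, joined by lines. In the first panel srx1 goes from 20.6 to 736 FPKM, whereas frp1 among the genes that cancel ends at 10.3 FPKM against 10.4 at baseline.

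Most genes of the core stress response rose. Of 14 genes taken as targets of Sty1 and Atf1, the authors' deposited table has 12 higher (85.7% called, against 18.04% of all members). The median combined ratio was 1.47 against -0.03 over the 4949 members. The list's median H2O2 part was 0.87 and its median label part 0.42. Its members split between the classes. The catalase gene ctt1 and the gene of Pyp2, a phosphatase that turns Sty1 off, followed H2O2 alone by the averaged parts, while hsp9, a small heat shock protein gene, followed the label alone at 3272, 3411, 7716 and 8851 FPKM. Levels of ctt1 were 178, 435, 107 and 515 FPKM, so the untreated label pool was the lowest and the treated label pool the highest, and the combined ratio was 1.53 ± 0.22. The authors' deposited table has ctt1 lower for the label in untreated cells, and its label ratios of -0.73 untreated and 0.24 after H2O2 have opposite signs. The glutathione peroxidase gene gpx1 added up at 655, 1306, 927 and 1974 FPKM, with 1849.9 FPKM predicted by addition. The remaining large rises were those of tms1 (2.49 ± 0.47) and of the nuclear envelope gene ish1 (1.99 ± 0.38), both mainly through H2O2. The transcript of sty1 itself (137, 178, 132 and 171 FPKM) was not called.

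Stretches of the promoters of gpx1 and ctt1, which show a Pap1 palindrome (TTACGTAA) and an Atf1-type cAMP response element (TGACGT) in capitals, are given as examples of the factor sites searched for in these stress genes. Both are from RefSeq ASM294v3 on the minus strand, 5′ to 3′, at chrII:2789684-2789721 and chrIII:58872-58907, and lie 134 to 97 and 74 to 39 bases before the gene start.
gpx1: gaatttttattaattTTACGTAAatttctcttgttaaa
ctt1: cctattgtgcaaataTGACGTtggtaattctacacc

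Of 10 Pap1 target genes, the authors' deposited table has 9 higher (90% called, against 18.04% of all members), with a median combined ratio of 1.09. The list's median H2O2 part was 0.80 and its median label part 0.13. The main peroxiredoxin gene tpx1 stood at 1534, 2813, 1550.3 and 3111 FPKM and the multidrug exporter gene caf5 at 10.9, 28.3, 11.9 and 30.96 FPKM, both with H2O2 acting alone. The thioredoxin reductase gene trr1 was in the same class by the averaged parts, at 264, 339, 229 and 416 FPKM (0.65 ± 0.28). Its H2O2 ratio was 0.36 in wild type, which was not called, and 0.86 under the label, which was. Its label ratios of -0.21 untreated and 0.30 after H2O2 had opposite signs. In contrast, the glutathione S-transferase gene gst2 added up at 211, 356, 375 and 591 FPKM, with parts of 0.70 and 0.78. The pap1 transcript stayed between 96.5 and 105 FPKM and was not called. Of the 24 antioxidant and glutathione enzymes, some of which are also in the Pap1 list, the authors' deposited table has 12 higher. That is 50% called, against 18.04% of all members. The superoxide dismutase gene sod2 (50.2, 45.9, 49.1 and 56.1 FPKM) and the glutaredoxin genes grx2 to grx5 were among the 12 not called, with combined ratios from -0.15 to 0.16.

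Of 23 chaperone genes, the authors' deposited table has 16 higher (69.6% called, against 18.04% of all members), and the median combined ratio was 0.94. The cytosolic Hsp70 gene ssa1 stood at 394, 811, 859.7 and 1575 FPKM, close to the 1769 FPKM of addition, and rose by 2.0 ± 0.26. The small heat shock protein gene hsp16 (1273, 2879.7, 2578 and 4117 FPKM) and the DJ-1 family gene hsp3103 (26.5, 49.6, 31.00 and 98.2 FPKM) also had both parts acting upward. Addition predicted 5831 and 57.8 FPKM for them, so hsp16 lay below and hsp3103 above its prediction. The label ratio of hsp3103 was 0.22 in untreated cells, which was not called, and 0.97 after H2O2. The J-domain gene psi1 (300.3, 684, 321 and 683 FPKM) and the Hsp90 co-chaperone gene sti1 (342, 706, 328 and 545 FPKM) followed H2O2 alone. The mitochondrial Hsp60 gene mcp60 and the endoplasmic reticulum Hsp70 gene bip1 were among the 7 not called. They stood at 954, 891, 879 and 929 FPKM and at 636, 609.9, 528 and 662 FPKM. The ssa1 promoter is shown because it holds 1 of the 24 heat shock elements found before all members (alternating GAA and TTC blocks, in capitals; chrI:2297995-2298037, minus strand, 73 to 31 bases before the gene start).
ssa1: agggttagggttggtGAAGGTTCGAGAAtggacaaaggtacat

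The largest called falls among genes with a symbol and at least 5 FPKM in the highest pool included genes of nutrient uptake, carbon metabolism and mating. The hexose transporter gene ght1 (SPCC548.07c) went the furthest, at 20.6, 1.12, 22.3 and 2.32 FPKM (-2.70 ± 0.39), a fall that lay in the H2O2 part (-3.08), as did those of the glycerol dehydrogenase gene gld1 (87.2, 25.6, 76.5 and 15.3 FPKM) and of zwf2, a paralogue of the glucose-6-phosphate dehydrogenase gene (74.6, 14.98, 63.3 and 13.02 FPKM). The uracil-regulated gene urg2, for a phosphoribosyltransferase, fell through both factors at 132, 79.4, 54.3 and 20.7 FPKM, with parts of -1.04 and -1.58. The mating transcription factor gene ste11 stood at 20.1, 3.64, 8.75 and 2.86 FPKM. Its level under H2O2 was low in both strains, so its label part of -0.69 lay mainly in the untreated pools. The urease gene ure2 (24.9, 13.3, 9.86 and 6.13 FPKM), the MBF subunit gene rep2 (45.5, 27.4, 17.5 and 10.6 FPKM) and the ARS-binding protein gene abp2 (34.05, 18.2, 12.2 and 8.60 FPKM) also had both parts acting downward. For H2O2, however, ure2 and abp2 were called in neither strain, and for the label only in untreated cells.

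Of 14 nitrogen and uracil-regulated genes, the authors' deposited table has 11 lower (78.6% called, against 18.04% of all members). The median combined ratio was -1.26. Within the list, urg1 (109, 49.5, 66.4 and 30.1 FPKM), urg2 and the uracil permease gene fur4 (61.5, 35.1, 34.1 and 28.8 FPKM) added up to lower levels. The permease genes put4 (14.6, 5.92, 12.9 and 4.82 FPKM), ptr2 (30.5, 13.9, 28.9 and 10.8 FPKM) and isp5 (9.32, 1.80, 7.98 and 3.03 FPKM), and isp7 (18.3, 5.58, 15.9 and 5.88 FPKM), followed H2O2 alone. The ammonium transporter gene amt1 stood at 12.4, 5.60, 11.01 and 3.54 FPKM (-1.56 ± 0.26), while amt2 (50.5, 48.4, 41.1 and 42.3 FPKM) was not called. With a pseudocount of 5 FPKM the list's median was -0.99.

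Phosphate acquisition genes did not move as a unit. The secreted acid phosphatase gene pho1 stood at 269, 308, 53.7 and 77.3 FPKM, with an H2O2 part of 0.36 and a label part of -2.14, and the phosphate transporter gene pho84 at 253, 158, 62.2 and 58.9 FPKM. The glycerophosphodiester transporter gene tgp1, regulated with them by the factor Pho7, rose through H2O2 alone at 5.26, 12.05, 5.49 and 12.7 FPKM. SPAC23D3.12, which has no symbol in the files, had the lowest combined ratio of the list (-2.35), with both parts acting downward. The authors' deposited table has 3 of the list's 6 genes lower and 1 higher (66.7% called, against 18.04% of all members).

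Hexose transporter genes spread across the classes. The high-affinity glucose transporter gene ght5 is the clearest case of cancelling among them: it stood at 669.7, 135, 1316 and 534 FPKM, an H2O2 part of -1.80 ± 0.17 against a label part of 1.48, and its combined ratio of -0.33 ± 0.24 was not called. The same opposition left ght3 higher (5.74, 1.92, 31.9 and 15.2 FPKM, 1.27 ± 0.27), because its label part was the larger. In ght7 the label acted alone (0.769, 0.861, 3.87 and 3.96 FPKM), ght8 fell at 364, 138, 243 and 144 FPKM, and ght2 was the member that H2O2 raised (48.4, 95.2, 39.5 and 69.7 FPKM). The authors' deposited table has 3 of these 8 genes higher and 3 lower (75% called, against 18.04% of all members). Among 13 glucose-repressed genes of carbon metabolism, parts of opposite sign were again frequent, with a median H2O2 part of -0.59 and a median label part of 0.73. The gluconeogenic gene fbp1 returned to baseline (8.08, 2.06, 13.8 and 7.64 FPKM), as did the galactose gene gal7 (39.7, 21.3, 57.2 and 41.7 FPKM), while gal10 (19.6, 6.56, 34.6 and 29.4 FPKM) rose and the invertase gene inv1 (68.8, 14.9, 77.2 and 33.1 FPKM) fell. For fbp1, however, H2O2 was called only under the label and the label in neither condition, and its parts of -1.17 and 1.10 had a standard error of 0.45.

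Genes of reductive iron uptake had the same opposition. The ferric reductase gene frp1 stood at 10.4, 3.68, 25.5 and 10.3 FPKM and its combined ratio was -0.02 ± 0.26, with parts of -1.26 and 1.24. The iron permease gene fip1 (12.5, 7.72, 43.6 and 21.7 FPKM) and its partner oxidase gene fio1 (3.08, 2.06, 14.2 and 6.84 FPKM) cancelled only in part and rose. The siderophore transporter genes str1 (15.6, 22.1, 54.5 and 65.7 FPKM) and str3 (1.07, 2.45, 6.34 and 7.75 FPKM) rose mainly through the label, and the copper transporter gene ctr4 (314, 241, 127 and 179 FPKM) fell through the label alone. Of the 13 iron and copper genes, the authors' deposited table has 5 higher and 2 lower (53.8% called, against 18.04% of all members).

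**Figure D4:**
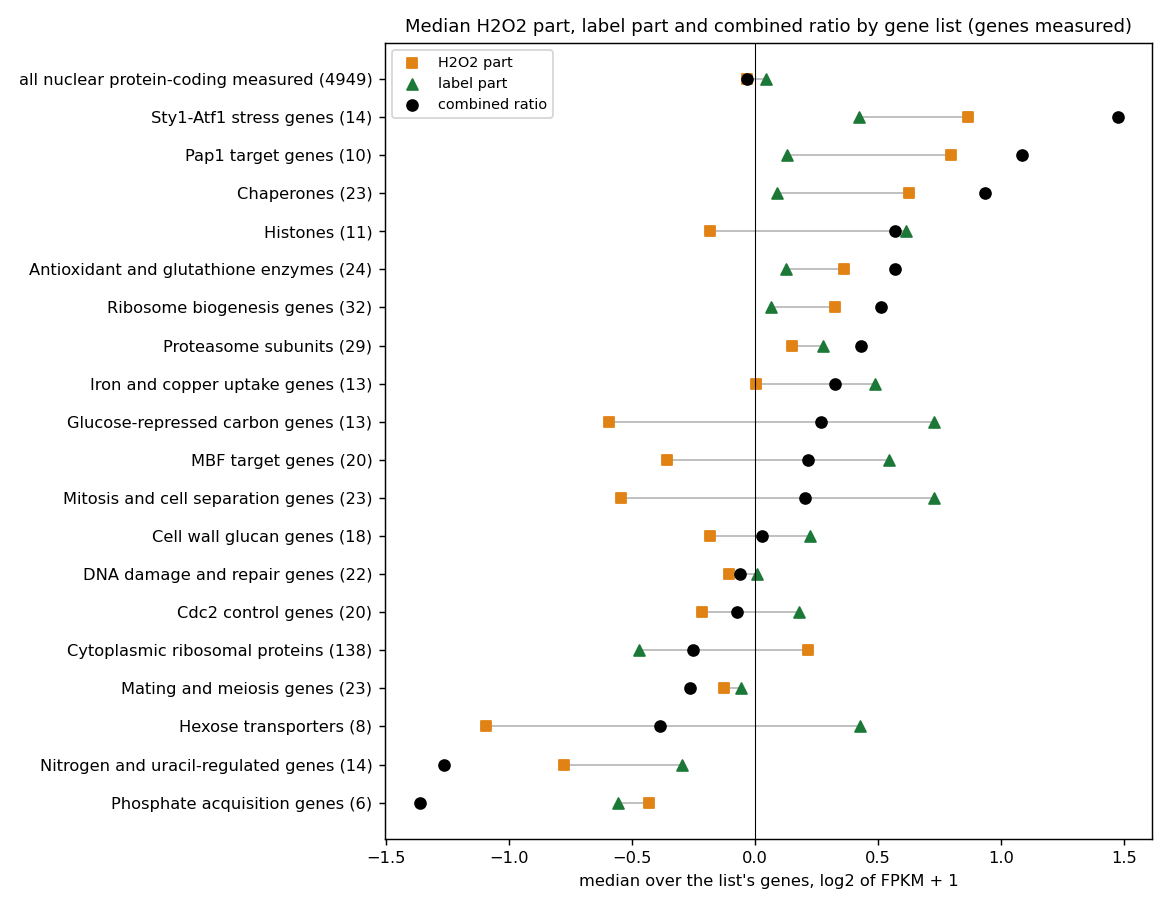
Median H2O2 part (square), label part (triangle) and combined ratio (circle) for 19 gene lists and for 4949 nuclear protein-coding genes, on the x axis in log2 units of FPKM + 1, with the genes measured in brackets. The Sty1-Atf1 list lies furthest to the right at a combined 1.47, and in hexose transporters, glucose-repressed genes, MBF targets and mitosis genes the square and the triangle lie on opposite sides of 0.

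Genes of mitosis and cell separation mostly had a negative H2O2 part and a positive label part. Of 23 such genes, the H2O2 part was negative in 23 and the label part positive in 22, with medians of -0.54 and 0.73 and a median combined ratio of 0.20. In 8 both parts reached 0.5, so that they cancelled, while 5 followed the label alone, 4 H2O2 alone, 3 were mixed and 3 had neither part. The authors' deposited table has 6 of the 23 higher and 2 lower in the combined difference (34.8% called, against 18.04% of all members). Over the members, the medians of the parts were -0.03 and 0.05. The alpha-glucanase gene agn1, which dissolves the septum wall, stood at 57.7, 29.3, 103 and 54.8 FPKM and ended at its baseline (-0.07 ± 0.24). So did the anaphase activator gene slp1 (18.5, 10.6, 36.3 and 21.4 FPKM), the contractile ring gene cdc15 (23.02, 14.6, 38.7 and 27.5 FPKM) and the membrane protein gene mac1 (24.4, 11.2, 39.1 and 27.5 FPKM). The cell separation gene adg2 had the largest label part (1.99), stood at 52.2, 28.6, 194 and 127 FPKM and rose by 1.27 ± 0.21. The septum beta-glucanase gene eng1 rose by 0.75 ± 0.21 (13.05, 8.74, 21.9 and 22.7 FPKM). The kinesin gene klp6 (14.5, 6.91, 14.01 and 7.48 FPKM) and the Cdc14-like phosphatase gene clp1 (19.4, 11.5, 20.9 and 13.1 FPKM) fell through H2O2 alone.

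MBF targets, genes of S phase entry, had opposite medians too, of -0.36 for H2O2 and 0.55 for the label. The replication licensing gene cdc18 went from 12.97 FPKM at baseline to 5.82 with H2O2, 26.6 with the label and 13.7 with both, a combined ratio of 0.07 ± 0.27. Others followed the label. The gene of the ubiquitin ligase adaptor Cdt2 stood at 28.6, 30.9, 98.5 and 76.6 FPKM and rose by 1.39 ± 0.22, and the ribonucleotide reductase gene cdc22 (173, 133, 359.9 and 305 FPKM) and the replication protein A gene ssb1 (88.7, 65.8, 192 and 157 FPKM) rose by 0.81 ± 0.22 and 0.81 ± 0.21. The DNA polymerase delta subunit gene cdm1 (19.9, 17.7, 63.7 and 52.2 FPKM) had a combined ratio of 1.35 ± 0.78, which was not called. The corepressor gene nrm1 (41.8, 22.8, 38.8 and 24.7 FPKM) had no label part and was not called. The authors' deposited table has 4 of these 20 genes higher and none lower (20% called, close to the 18.04% of all members). The promoters of cdt2 and cdc22 are shown with their 3 and 2 MCB elements, the MBF site (ACGCGT, in capitals), from chrI:2035734-2035841 on the minus strand and chrI:4226893-4226938 on the plus strand.
cdt2: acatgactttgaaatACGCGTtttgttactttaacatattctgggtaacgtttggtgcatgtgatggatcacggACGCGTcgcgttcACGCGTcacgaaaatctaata
cdc22: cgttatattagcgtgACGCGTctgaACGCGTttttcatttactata

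Histone genes followed the label. Of 11, the authors' deposited table has 5 higher (45.5% called, against 18.04% of all members). The label part was positive in 11 with a median of 0.61, and the median H2O2 part was -0.18. The histone H2B gene htb1 stood at 1394, 1235, 2259 and 2214 FPKM and the H3 gene hht1 at 1480.5, 1189, 2441 and 2213 FPKM, so both untreated and treated label pools lay above both wild-type pools. The centromeric H3 gene cnp1 (12.8, 11.4, 21.02 and 17.2 FPKM) was not called and the H2A.Z gene pht1 (123, 107, 207 and 184 FPKM) rose. Copies of H3 and H4 are near-identical, so their reads may be split between copies and single copies are uncertain. The htb1 and hht1 promoters are shown with their paired AACCCT boxes in capitals, which read AGGGTT where the box is on the other strand (chrIII:1412285-1412326 and chrI:4699637-4699678, plus strand).
htb1: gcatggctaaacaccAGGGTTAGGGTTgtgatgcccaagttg
hht1: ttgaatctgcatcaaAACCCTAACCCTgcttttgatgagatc

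**Figure D5:**
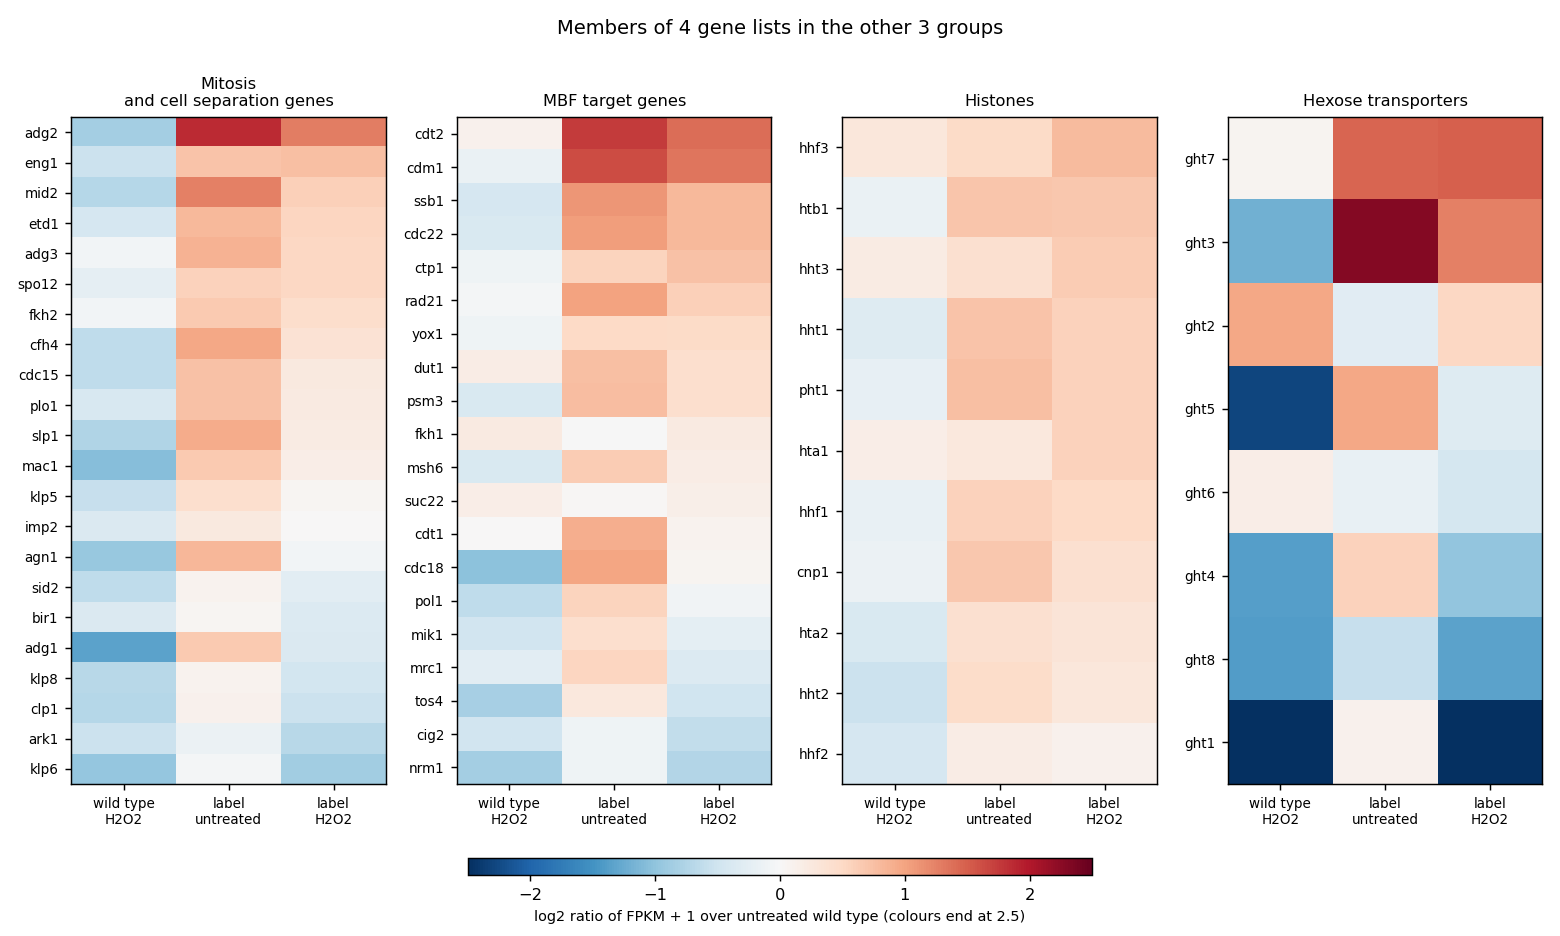
Log2 ratio of FPKM + 1 over untreated wild type (colour, ending at 2.5 on either side) for members of 4 gene lists in wild type after H2O2 and in the ∆wee1 label untreated and after H2O2. In mitosis genes the first column is mostly blue and the second mostly red, and the third lies between them, as in agn1 at 57.7, 29.3, 103 and 54.8 FPKM; histones are red in the columns of the label.

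Among 20 genes that control Cdc2, the B-type cyclin gene cig1 (33.9, 21.8, 21.7 and 15.1 FPKM) and the phosphatase gene cdc25, which opposes Wee1 (20.4, 11.9, 12.3 and 10.2 FPKM, -0.94 ± 0.22), fell, each with both parts negative. In cdc25 neither part reached 0.5, and H2O2 was called only in wild type and the label only in untreated cells. The tyrosine phosphatase gene pyp3, which also acts on Cdc2, rose through H2O2 alone at 39.00, 58.6, 40.4 and 77.2 FPKM. The transcripts of cdc2 (71.5, 61.6, 62.00 and 58.1 FPKM), the mitotic cyclin cdc13 (89.5, 62.9, 97.9 and 78.9 FPKM) and the second Cdc2 inhibitor kinase mik1 (10.04, 6.88, 13.7 and 8.36 FPKM) were not called. With wee1 counted, the authors' deposited table has 4 of the 20 higher and 3 lower (35% called, against 18.04% of all members).

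Genes of protein synthesis and turnover had small parts. Of 32 ribosome biogenesis genes, the authors' deposited table has 16 higher (50% called, against 18.04% of all members). The H2O2 part was positive in 31, with a median of 0.32. The processome gene imp4 stood at 22.8, 67.9, 41.1 and 70.99 FPKM, against 121 FPKM predicted by addition, and mak16 at 48.9, 100.2, 66.6 and 106 FPKM. The 138 ribosomal protein genes had a median H2O2 part of 0.22, which turned to -0.012 under quantile normalization, and a median label part of -0.47, which shrank to -0.094. Without that normalization, the label part was negative in 138 and the H2O2 part positive in 137, and 38 followed the label alone. For the label, the authors' deposited table has 37 lower in untreated cells and 91 lower after H2O2. Over all tested members, 4.7% and 7.06% were lower in these 2 comparisons. In the combined difference, that table has 6 of the 138 lower (4.35% called, against 18.04% of all members), such as rps2202 (1588, 1964, 786 and 1005 FPKM). Of 29 proteasome genes, the authors' deposited table has 12 higher, such as pre8 (139, 171, 178 and 215 FPKM, 0.62 ± 0.23). That is 41.4% called, against 18.04% of all members. The median parts were 0.15 (-0.049 under quantile normalization) and 0.28. Only rad54 (12.03, 22.3, 18.4 and 20.5 FPKM) rose and only rad17 (9.86, 6.53, 7.88 and 6.31 FPKM) fell among 22 DNA damage and repair genes in the authors' deposited table. That is 9.09% called, against 18.04% of all members.

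Mating and cell wall genes went both ways. Of 23 mating and meiosis genes, the authors' deposited table has 8 lower, among them ste11, mfm2, the adaptor gene ste4 (34.3, 28.8, 15.4 and 12.7 FPKM) and the meiotic regulator gene mei2 (7.13, 3.37, 6.22 and 2.56 FPKM). It has 4 higher, among them the meiotic activator genes rep1 (1.92, 5.83, 3.24 and 11.3 FPKM) and mei4 (1.75, 4.67, 2.02 and 8.47 FPKM), which stayed near 10 FPKM or lower. With both directions, 52.2% of the list was called, against 18.04% of all members. Of 18 cell wall glucan genes, the authors' deposited table has 5 higher and 1 lower (33.3% called, against 18.04% of all members). The GPI-anchored wall protein gene ecm33 followed the label alone (634, 599, 1417 and 1506 FPKM), the exoglucanase gene exg3 followed H2O2 alone (43.8, 80.4, 41.04 and 78.4 FPKM), and psu1 added up (28.4, 60.1, 39.3 and 88.4 FPKM). The glucanosyltransferase gene gas1 cancelled (218, 81.3, 307 and 185 FPKM).

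Among genes outside the lists, mfs1 is an example of H2O2 raising and the label lowering a level (38.6, 115, 21.05 and 49.9 FPKM), with parts of 1.38 and -1.02 and a combined ratio of 0.36 ± 0.23 that was not called. The mitochondrial gene cmc4 (57.5, 129, 33.9 and 69.5 FPKM) and the lifespan gene ecl3, at 27.8 FPKM at baseline and 80.3 in wild type after H2O2 but 12.1 in the treated label pool, were in the same class, with standard errors of the combined ratio of 0.87 and 0.91. The calcineurin-responsive factor gene prz1 was lower after H2O2 in both strains (58.8, 14.02, 33.00 and 20.5 FPKM), and the authors' deposited table also has it lower for the label in untreated cells. In the label alone, lower levels were seen for the flocculin gene pfl3 (19.9, 15.4, 6.95 and 6.20 FPKM), the arginine synthesis gene arg4 (116, 107, 54.4 and 52.4 FPKM) and the branched-chain aminotransferase gene eca39 (1723, 1977, 849 and 977 FPKM), all 3 called in the authors' deposited table. Galactomannan gene gmh2 added up to a lower level (116, 65.7, 68.3 and 36.97 FPKM, -1.62 ± 0.35). Of the named genes, cum1, eta2, bag101, ucp6 and rpa49 were listed at 0 in at least 1 pool, and clr3 stood at 0.00969 and 0.00355 FPKM in the untreated pools, so they are named without a fold, and the authors' deposited table calls none of them in the combined difference. In mug108 (68.8, 0.961, 91.6 and 35.3 FPKM), the size of both parts rests on the low value in wild type after H2O2.

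Few genes passed the test for a departure from simple addition. The departure, the log2 ratio of H2O2 over untreated under the label minus that in wild type, was within 0.25 in 72.3% and within 0.5 in 91.9% of the members, and at least 1 in 75. A two-sided z test built from the variances implied by the authors' deposited table, with Benjamini-Hochberg adjustment over 6169 measured genes, found 3 of 4922 nuclear protein-coding genes (0.061%) at an adjusted p under 0.05, and 60 at an unadjusted p under 0.05. The robust SD of z was 0.47, where 1 is the value for correct standard errors, so the test is strict for most genes and a gene that misses it is not shown to be additive. Of the well-measured named genes, ctt1 departed by 0.98 ± 0.31, lsd90 by 1.02 ± 0.31, ght5 by 1.0 ± 0.34 and prz1 by 1.33 ± 0.39, and the z test passed none of these 4. In the genes that cancel with H2O2 downward, 24 of 59 departed by at least 0.5 and 3 by at most -0.5, and in the other cancelling class 2 and 15 of 42. Class and departure come from the same 4 values, so these counts are a description.

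Of the 78 genes that add up to a higher level, 35 carried a symbol in the files, against 3662 of 4949 members. Their median level at baseline, which enters the rule as a denominator, was 11.3 FPKM, against 37.2 FPKM over the members and 122.7 FPKM in genes lowered by the label alone. A share of 20.5% of the 78 lay on chromosome III, close to the 17.96% of all members. A locus shared with another gene was listed for 65.4% of the members and for 62.8% of the genes that add up higher. Of the members outside shared loci, the authors' deposited table called 28.4%. Of the 116 genes named by rule, 68 lie in shared loci, among them srx1, eno102, hsp3101, ght1, gld1, zwf2, cdt2, ssa1, gpx1 and tpx1, and since the strand setting of the counting is not given, their reads may include those of the partner.

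Promoter sequences were searched in the 300 bases before each RefSeq gene start, on both strands. The letters TGACGT occurred in 6.04% of 4949 windows, in 17.9% of the 78 genes that add up higher and in 13.2% of the 151 raised by H2O2 alone, and in 6 of the 14 Sty1-Atf1 genes. ACGCGT occurred in 2.87% of windows and in 8 of the 20 MBF targets. The forkhead letters TGTTTAC, in 17.0% of windows, were found in 13 of the 23 mitosis genes. They were also found in 27.1% of the genes that cancel with H2O2 downward, 27.6% of those that add up lower, 25.1% of those lowered by H2O2 alone and 24.6% of those raised by the label alone. AACCCT, in 9.56% of windows, preceded 9 of the 11 histone genes and 43 of the 138 ribosomal protein genes. TTACGTAA was found in 28 windows and the heat shock letters in 24. The window of srx1 held none of these motifs. A match describes letters and is no measure of binding, and these shares were not tested.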

How the data were processed

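Cells of 4 groups with 2 libraries each were sequenced after TRIzol extraction and TruSeq stranded mRNA preparation, per the labels' protocols. Per the submitters' processing notes, cutadapt, HISAT2 and Cuffdiff were used, with versions, genome build, annotation and strand setting not given in the sources used here. As deposited by the authors, FPKM has 1 value per group. Per the file headers, their deposited table holds the log2 fold change of each pair of groups with its p-value, q-value and Cuffdiff score, called the statistic here. Its q-values equal Benjamini-Hochberg values over 37869 tests in 6 pairs, and the lowest p-value listed is 5e-05. Depth per library is unknown, so no counting interval is given, and a linear model (limma) across libraries, planned for values per library, was not run.

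Here log2 ratios of FPKM + 1 were computed with Python 3.11.15 (numpy 2.4.6, pandas 2.3.3, scipy 1.17.1). The standard error of a deposited log2 fold change is that fold change divided by its statistic. Group variances solved from these fitted the 6 pairs to within 1.08e-05 of their size. For the errors printed, each variance was multiplied by the square of FPKM / (FPKM + 1), which makes it small in pools at very low FPKM. The authors' p-values correspond to a normal deviate a median of 1.42 times the statistic, so the errors printed are wide, except where a pool is at very low FPKM. The z test of departure was run on simulated data with noise drawn from the same implied variances. That run cannot show whether these variances hold in the real data. Gene types, neighbours and promoters come from RefSeq ASM294v3, matched by systematic ID; of 1714 loci with a single gene, 1709 share at least 1 end with it.

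Named genes have a symbol and at least 5 FPKM in the highest pool. They are the 10 largest called rises and falls, per class the 5 with the largest smaller or acting part, up to 4 members per list with the largest combined ratio, and genes always kept. Other list members are named with their values to show how a list is made up and were chosen after their values were seen. The members and the 21 gene lists were chosen with earlier results of these data known, so no list is independent evidence of its direction. Some lists share genes. The genes pho81 and pre2 were not found in the files by symbol. A gene of the mitosis list is in its counts but is not reported here. Alternatives tried were pseudocounts of 0.1 and 5, filters, 2 scalings, other class rules and leaving out genes at 0 or in shared loci, of which the last 2 were chosen after seeing the data.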

Additional observations from a re-analysis of the deposited data

Results flagged for a closer look

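For 3 genes without a symbol in the files, the log2 ratio of H2O2 over untreated differed between the strain labels by the z test at an adjusted p under 0.05. They were chosen by this test after their values were seen. SPAC2H10.01, annotated as a transcription factor in RefSeq, stood at 68.8, 37.4, 42.9 and 61.6 FPKM at baseline, with H2O2 alone, with the ∆wee1 label alone and with both. Its ratio was -0.86 in wild type and 0.51 under the label, a difference of 1.37 ± 0.29 (adjusted p = 0.000982). Each factor alone thus had a lower level than baseline, and both together were close to it. SPBPB21E7.04c, the RefSeq gene cmt2 of a catechol O-methyltransferase, stood at 59.7, 9.69, 197 and 95.5 FPKM, and its ratios of -2.5 and -1.04 differed by 1.47 ± 0.36 (adjusted p = 0.0142). SPAC12B10.15c, the RefSeq gene rnh203 of a ribonuclease H2 subunit, stood at 0.0354, 10.6, 13.9 and 10.99 FPKM, and its ratios of 3.48 and -0.31 differed by -3.79 ± 1.0 (adjusted p = 0.0440). That last difference rests on the near-absent value in untreated wild type. Its standard error carries little of that pool's variance, which the FPKM + 1 scale makes small. The authors' deposited table calls SPAC12B10.15c in none of the comparisons used here (q-values from 0.554 to 0.976). SPAC12B10.15c and SPBPB21E7.04c lie in a locus shared with another gene.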

How the results depend on the processing

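Each value is 1 pool of 2 libraries. Leaving out a library was not possible, and the part of single libraries in any result was not tested. No paired analysis was possible because the columns carry no replicate number.

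With a pseudocount of 5 FPKM, 67 genes were at least 2-fold lower instead of 130, 67 added up instead of 107 and 61 cancelled instead of 101. The same pseudocount moved the combined median of nitrogen and uracil-regulated genes from -1.26 to -0.99 and the label median of iron and copper genes from 0.49 to 0.28. Without a filter on the mean level, the H2O2 median of the nitrogen list was -0.51 instead of -0.77. Under quantile normalization the H2O2 median changed sign to 0.012 for DNA damage genes (from -0.10), -0.049 for proteasome genes (from 0.15) and -0.012 for ribosomal proteins (from 0.22), whose label median became -0.094 instead of -0.47. The cause was not tested. Calls in the authors' deposited table that were also at least 2-fold numbered 167 higher and 93 lower, against 488 and 405, and 2-fold alone gave 234 and 130. With ratios over untreated wild type in place of averaged parts, 180 genes added up, of which 77 were shared with the 107; 60 of 101 cancelling genes, 285 of 386 for H2O2 alone and 154 of 282 for the label alone kept their class. With a threshold of 1 log2 unit, 26 added up, 21 cancelled, 56 followed H2O2 alone and 45 the label alone. Classes by the authors' deposited calls put 46 genes in cancelling and 620.0 in H2O2 alone. Outside shared loci the authors' deposited table called 28.4% instead of 18.04% of members, and 1 departure passed instead of 3. No called combined ratio of a named gene changed sign under the alternatives run on it. With pseudocounts of 0.1 and 5, 8 and 20 of these ratios moved by more than 1 standard error. The medians of all members shifted by under 0.1 log2 units in both scalings.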
